A study of Mus musculus with 3 samples.

Results

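The 45 genes described here are type I interferon-stimulated genes, a set given by name and matched by gene ID to 45 of the 16621 genes in the tables. All 45 had at least 10 counts in some library and all 45 entered the test of genotype. They were measured in tail tendon derived stem cells, the colony-forming progenitors of tendon, isolated from 10-week-old C57BL/6 mice and grown to confluence at passage 4 in medium with fetal bovine serum, without treatment. The WT group was 1 library of wild-type cells, and the DF508 group was 2 libraries of cells labelled CFTRΔF508, which carry the cystic fibrosis mutation of the anion channel gene Cftr. The zygosity of the mutation and the number of mice behind a library are not in the labels. The single WT library carried no estimate of its own spread, so the test took that of the DF508 pair for it. Nothing in the labels says that the DF508 pair was grown from different mice or dishes, and a p-value here covers only how far these samples scatter, which may be technical.

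Type I interferons bind the receptor IFNAR1/IFNAR2, whose kinases JAK1 and TYK2 phosphorylate transcription factors, STAT2 among them. STAT2 and IRF9 are subunits of the complex ISGF3, which binds the interferon-stimulated response element, or ISRE, in the promoters of the genes it induces. The products sense viral nucleic acid, block viral entry, translation and release, and raise or restrain further interferon signalling. Many are also expressed at a low level in fibroblasts that meet no virus.

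Each table gave an expected count per gene, an estimate of the reads that came from it, with 5241826 to 5298326 counts per library. Levels are given as CPM, the expected count scaled to the library total, when 1 gene is compared between libraries. They are given as FPKM, which is also scaled to gene length, when genes are compared with each other. Cftr had 15 counts in WT and 1 in each DF508 library. The tendon fibroblast markers summed to 44610 CPM in WT and to 46220 and 48430 CPM in DF508 replicates 1 and 2, with all 11 markers detected in all 3 libraries. The 18 myeloid markers summed to 114 CPM in WT, 175 CPM in DF508 replicate 1 and 802.4 CPM in DF508 replicate 2. Lymphoid, plasmacytoid dendritic, endothelial and epithelial markers each summed to at most 2.27 CPM. Cd3e, Cdh1, Pecam1 and Cdh5 were listed in none of the 3 libraries and were set to 0.

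Of the 45 genes, 20 had an expected count that was not whole in at least 1 library, so part of their reads was divided with another gene or copy, and their values are uncertain. These include Ifit1, Ifit3, Ifi44, Oasl2, Irf9, Isg15, Ddx58 and the 3 Ifitm genes. The other 25 had whole counts in all 3 libraries, so no sharing of reads was seen in them, which does not exclude it.

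The letters of the response element were searched for in the RefSeq promoter table of assembly GRCm38.p6, which holds 250 bases before to 50 bases after each start site and had an entry for 34 of the 45 genes. The ISRE was written as GAAA, 2 bases of any kind and GAAA again, and the gamma-activated site, or GAS, as TTCNNNGAA, each read on both strands. The ISRE stood in 17 of 41 promoters of these genes (41.5%) against 1131 of 32851 promoters in the table (3.44%). The GAS stood in 8 of 41 (19.5%) against 8.3% in the table. Copies of the ISRE can overlap each other by GAAA. Windows of 6 genes are shown because they carry the element upstream of genes that passed the test and of genes that did not. Ifit1, Ifit3 and Bst2 were lower in DF508, and Isg15 was lower in both DF508 libraries without passing the test. Oas1a and Oas3 were at or above the WT level in both and did not pass either. Each window is written 5′ to 3′ on the strand of its gene, with the ISRE in capitals. They lie at chr19:34640760-34640838 (plus strand, Ifit1), chr19:34583348-34583441 (plus, Ifit3), chr8:71537562-71537627 (minus, Bst2), chr4:156200850-156200921 (minus, Isg15), chr5:120907526-120907570 (minus, Oas1a) and chr5:120777700-120777759 (minus, Oas3).
Ifit1: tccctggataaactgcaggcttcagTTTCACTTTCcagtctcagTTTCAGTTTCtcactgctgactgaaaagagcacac
Ifit3: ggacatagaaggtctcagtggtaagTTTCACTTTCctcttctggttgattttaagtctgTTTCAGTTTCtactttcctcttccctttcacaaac
Bst2: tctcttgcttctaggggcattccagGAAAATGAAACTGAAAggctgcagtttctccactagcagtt
Isg15: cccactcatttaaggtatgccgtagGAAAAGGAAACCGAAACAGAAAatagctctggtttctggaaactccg
Oas1a: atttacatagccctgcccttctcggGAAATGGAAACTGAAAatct
Oas3: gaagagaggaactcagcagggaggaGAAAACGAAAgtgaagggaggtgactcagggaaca

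Ifit1 and Ifit3 each carried 2 separate copies upstream of the start site, both on the strand opposite to the gene. Bst2 and Oas1a carried 2 overlapping copies and Isg15 carried 3. Among the genes past the threshold, 8 had a promoter entry, and 3 of the 8 held the ISRE (37.5%). By gene, 16 of the 34 genes of the set held it (47.1%), against 3.99% of all genes with a promoter entry. The element was thus not more frequent in the genes past the threshold than in the set. A match is a description of letters in the window, and the windows come from the C57BL/6J reference and not from the reads.

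DF508 was compared with WT to find which of these transcripts the genotypes held at different levels. Of the 45 genes 11 were lower in DF508 and 0 were higher (edgeR's quasi-likelihood test, Benjamini-Hochberg adjusted p under 0.05 over the 12888 genes tested). That is 24.4% of the set, where 0.900% of all genes tested were called lower and 0.489% higher. The set was chosen with earlier results of these data known, so its share is a description and not independent support. From another list of interferon-inducible genes, 48 were tested and 0 passed. The 11 were Zbp1, Usp18, Ifit3, Ifit1, Ifi44, Rtp4, Irf7, Bst2, Oasl2, Irf9 and Lgals3bp. Their fitted falls ran from 2.91-fold in Zbp1 to 1.41-fold in Lgals3bp. The median log2 fold change of the 45 was −0.39, against 0.01 over all genes tested.

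At an unadjusted p under 0.05, 27 of the 45 were lower and 0 higher, against 6.08% and 5.86% of all genes. The number of calls depended on the settings: with library totals in place of TMM, without a filter on low counts, or with limma on log2(FPKM + 1), 0 of the 45 and 0 of all genes passed (23, 24 and 21 of the set had an unadjusted p under 0.05). With library totals the log2 fold changes of the 11 genes still ran from −1.50 to −0.45, and with DESeq2 size factors 11 of the 45 passed. DESeq2's Wald test called 4 of the 45, which were Ifit1, Ifit3, Ifi44 and Lgals3bp.

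The direction was counted without any test, on counts scaled to the library total, among genes with at least 10 counts in a library. The 45 genes were below WT in both DF508 libraries in 32 cases (71.1%), above WT in both in 3 cases, and WT lay between the DF508 libraries in 10. Over all 12930 such genes the shares were 29.8%, 43.2% and 27.0%. In 28 of the 45 the nearer DF508 library lay below WT by more than the log2 gap between the DF508 libraries, as did 16.3% of all genes. At least 1.5-fold lower in both were 14 of the 45 (all genes, 2.52%), and at least 2-fold lower in both were 7 (all genes, 0.712%). None was 1.5-fold or 2-fold higher in both, where 5.64% and 2.17% of all genes were.

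**Figure D1:**
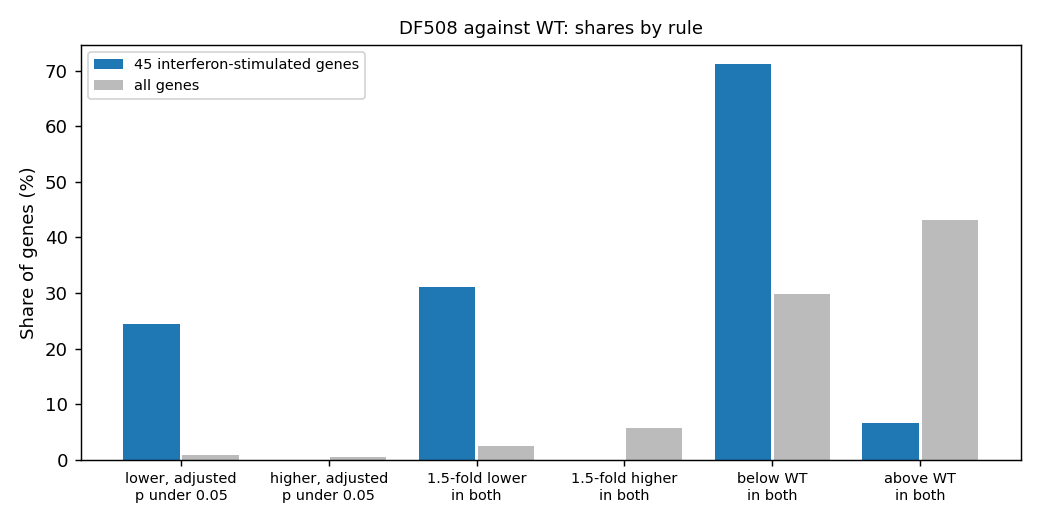
Share of genes (%) that met each rule in DF508 against WT, for the 45 interferon-stimulated genes (blue) and for all genes (grey). By adjusted p, 24.4% of the set and 0.900% of all genes were lower, and 71.1% of the set and 29.8% of all genes lay below WT in both DF508 libraries. The set was chosen with earlier results of these data known.

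Most of the genes below WT were abundant ones. Of the 28 with a mean of at least 100 counts, 25 were below WT in both DF508 libraries and 0 were above, against 31.2% and 43.6% of all genes at that level. Of the 17 with a mean under 100 counts, 7 were below WT in both and 3 above, against 27.9% and 42.6% of all genes at that level. These less abundant genes have wide counting intervals, which are given with the values of Oas2, Rsad2 and Cxcl10.

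The median absolute log2 gap between the DF508 libraries was 0.30 over the 45 genes and 0.16 over all genes with 10 counts. All 11 genes past the threshold were lower in replicate 2 than in replicate 1. The median log2 ratio to WT was the same in both, −0.40 in replicate 1 and −0.40 in replicate 2, against 0.04 and 0.05 over all genes.

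**Figure D2:**
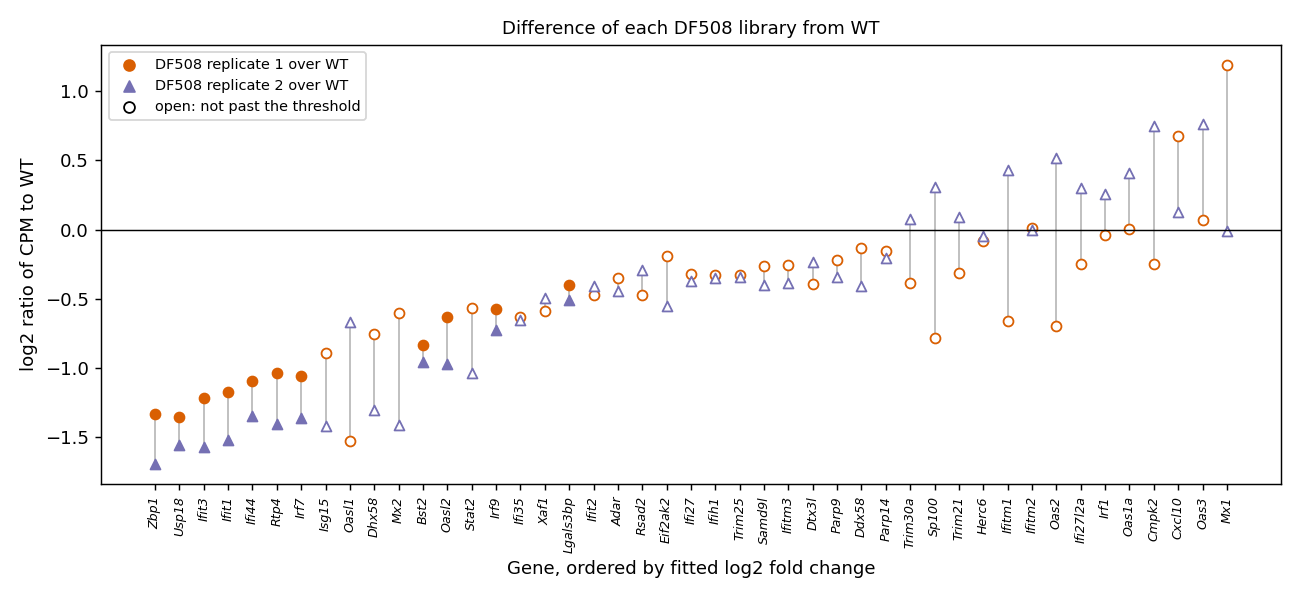
Log2 ratio of CPM to WT for each of the 45 genes, ordered by fitted log2 fold change, with DF508 replicate 1 as circles and replicate 2 as triangles, joined by a line. Filled symbols mark the 11 genes past the threshold, whose libraries both lie below 0, and the lines are longest among the genes with few counts at the right, such as Oas2 and Mx1.

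Of the 17 myeloid markers tested 0 passed the threshold, although all 17 had a positive fold change and 15 were above WT in both DF508 libraries. Over all genes with at least 10 counts in a library, 43.2% were above WT in both. The summed level of the myeloid markers in replicate 2 was far above those in WT and replicate 1. In replicate 1, with the lower myeloid sum, the median log2 ratio to WT of the 45 interferon-stimulated genes was −0.40, against 0.04 over all genes. In replicate 2 these medians were −0.40 and 0.05. Fewer cells of a type and less RNA per cell cannot be told apart in these bulk samples, and the part of the myeloid cells in the values was not tested.

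**Figure D3:**
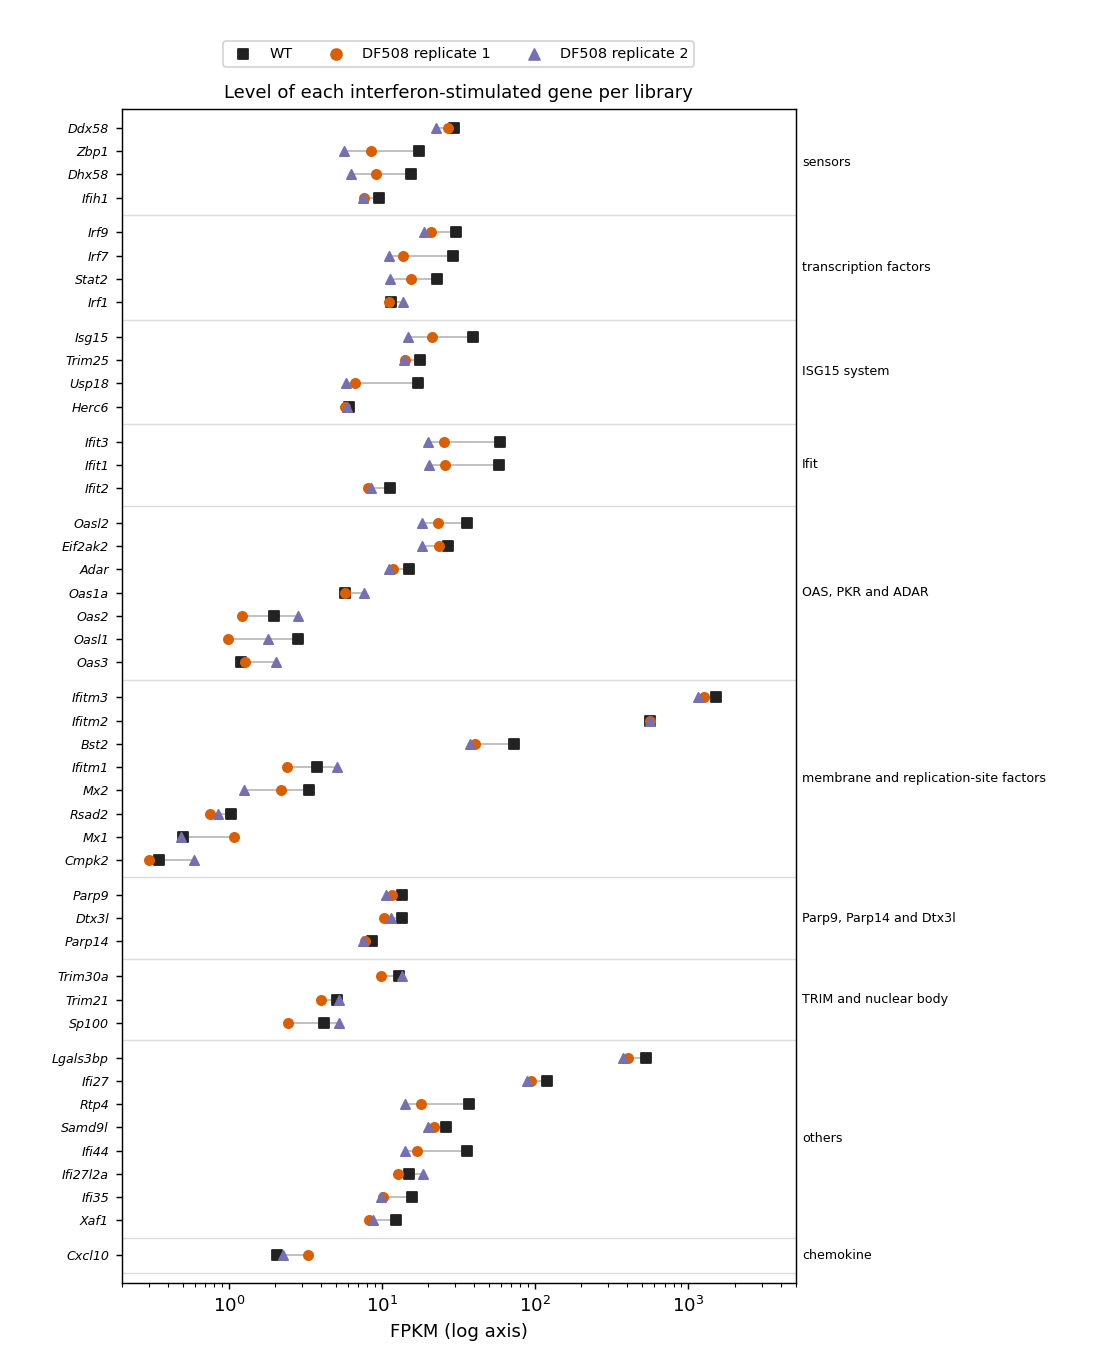
FPKM (log axis) of each of the 45 genes in WT (square), DF508 replicate 1 (circle) and DF508 replicate 2 (triangle), grouped by role and ordered by level within a group. Levels span from under 1 FPKM in Cmpk2 to 1505 FPKM in WT for Ifitm3, and among the genes past the threshold the WT square lies to the right of both DF508 symbols.

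The sensors detect viral nucleic acid in the cytoplasm. All 4 were below WT in both DF508 libraries and 1 passed the test. Zbp1 (gene ID 58203), which binds Z-form nucleic acid and can start necroptosis, was at 24.0 CPM in WT and at 9.54 and 7.43 CPM in DF508 replicates 1 and 2. Both DF508 libraries lay more than 2-fold below WT, with a log2 ratio of −0.36 in replicate 2 over replicate 1. Zbp1 was 2.91-fold lower (log2 fold change −1.54 ± 0.25 SE, edgeR adjusted p = 0.0254).

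Dhx58, whose product LGP2 regulates the other RIG-I-like receptors, was at 37.6 CPM in WT and at 22.3 and 15.2 CPM in DF508. It was at least 1.5-fold below WT in both libraries, but they stood apart from each other, and the log2 fold change of −1.04 ± 0.23 SE had an edgeR adjusted p of 0.0823. Ddx58, which encodes RIG-I, the receptor for RNA with a 5′ triphosphate, was the best expressed sensor at 29.7 FPKM in WT and 27.2 and 22.4 FPKM in DF508. Its log2 fold change was −0.31 ± 0.13 SE (edgeR adjusted p = 0.401). Ifih1, which encodes the long double-stranded RNA receptor MDA5, had a log2 fold change of −0.38 and did not pass.

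The transcription factors carry the interferon signal to the genes and amplify it, and 2 of 4 were lower. Irf7 (gene ID 54123), the master regulator of interferon alpha genes, was at 52.5 CPM in WT and at 25.2 and 20.4 CPM in DF508. The DF508 libraries were below WT by a margin several times the gap between them. Irf7 was 2.37-fold lower (log2 fold change −1.25 ± 0.17 SE, edgeR adjusted p = 0.0163).

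Irf9 (gene ID 16391), the DNA-binding subunit of ISGF3 and the best expressed gene of this group at 30.5 FPKM in WT, was at 72.9 CPM in WT and at 49.1 and 44.2 CPM in DF508. It was 1.61-fold lower (log2 fold change −0.69 ± 0.12 SE, edgeR adjusted p = 0.0404), and it shares reads. Stat2, the ISGF3 subunit that binds IRF9, was at 102 CPM in WT and at 68.9 and 49.7 CPM in DF508, below WT in both, with a log2 fold change of −0.82 ± 0.17 SE and an edgeR adjusted p of 0.0588. Irf1, a factor that interferon gamma induces strongly, did not share the pattern. It was at 24.5 CPM in WT and at 23.9 and 29.4 CPM in DF508, on either side of WT.

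ISG15 is a ubiquitin-like protein that is joined to other proteins, in mouse by the ligase HERC6, and removed by USP18. Usp18 (gene ID 24110), whose product also restrains IFNAR2 signalling, was at 30.2 CPM in WT and at 11.8 and 10.3 CPM in DF508. It was 2.81-fold lower (log2 fold change −1.49 ± 0.21 SE, edgeR adjusted p = 0.0181), and the DF508 values lay close together. Isg15 (gene ID 100038882) was at 28.8 CPM in WT and at 15.6 and 10.8 CPM in DF508, below WT by more than 1.5-fold in both. Its log2 fold change of −1.16 ± 0.25 SE had an edgeR adjusted p of 0.0687, and it shares reads.

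Isg15 was also the best expressed of this group, with 39.4 FPKM in WT and 21.3 and 14.8 FPKM in DF508. The ligase gene Herc6 was at 32.3 CPM in WT and at 30.5 and 31.3 CPM in DF508, a log2 fold change of −0.11 ± 0.16 SE, and whether it differed from the other ISG15 genes in its response was not tested. Trim25, the ubiquitin ligase that activates RIG-I, had a log2 fold change of −0.38 and did not pass.

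IFIT proteins bind viral RNA that lacks the cap methylation of host mRNA and block its translation. Their 3 genes had the lowest median of the role groups, a log2 fold change of −1.38, and 2 passed. Ifit1 (gene ID 15957) was at 154 CPM in WT and at 68.4 and 53.9 CPM in DF508. Ifit3 (gene ID 15959), which stabilizes IFIT1 in a complex, was at 118 CPM in WT and at 50.8 and 39.8 CPM in DF508. In both genes the DF508 libraries lay below the WT level by more than 2-fold each. Ifit1 was 2.6-fold lower (log2 fold change −1.38 ± 0.14 SE) and Ifit3 2.69-fold lower (−1.43 ± 0.14 SE), each with an edgeR adjusted p of 0.00587.

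Both genes share reads, and their counts do not become whole when summed with the near copies named here. Summed with Ifit1bl1 and Ifit1bl2, the Ifit1 family was at 158.1 CPM in WT and 71.28 and 56.23 CPM in DF508. Ifit3 summed with Ifit3b was at 149.1 CPM in WT and 69.48 and 48.92 CPM in DF508, so both sums were at least 2-fold below WT in both DF508 libraries. Ifit2, the neighbour of Ifit3, moved less: it was at 44.5 CPM in WT and at 32.0 and 33.5 CPM in DF508, a log2 fold change of −0.49 ± 0.15 SE that did not pass (edgeR adjusted p = 0.205). Whether Ifit2 differed from its neighbours in its response was not tested.

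The OAS enzymes make 2′-5′ oligoadenylate, which activates RNase L. Oasl1 and Oasl2 are related to them, Eif2ak2 encodes the kinase PKR, and Adar edits double-stranded RNA. Of these 7 genes 1 passed. Oasl2 (gene ID 23962), the best expressed of them at 35.7 FPKM in WT, was at 112 CPM in WT and at 72.5 and 57.2 CPM in DF508. Both DF508 libraries were at least 1.5-fold below WT. Oasl2 was 1.79-fold lower (log2 fold change −0.84 ± 0.14 SE, edgeR adjusted p = 0.0325), and it shares reads.

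Neither its neighbour Oasl1 nor the 3 OAS genes passed. Oasl1, which restrains translation of Irf7 in mouse cells, had 32 counts in WT and 11 and 20 in DF508, at least 1.5-fold lower in both. The edgeR adjusted p was 0.479 for a log2 fold change of −1.07 ± 0.53 SE. Oas2 turned between the DF508 libraries, with 41 counts in WT, 25 in replicate 1 and 58 in replicate 2. Pooled over both DF508 libraries its ratio to WT was 1.02, with an exact 95% interval from counting of 0.695 to 1.52.

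Oas3, the neighbour of Oas2, had 30.6 counts in WT and 31.7 and 51.2 in DF508. Oas1a had 57.1 counts in WT and 56.6 and 74.8 in DF508, which in CPM is level with WT in replicate 1 and above it in replicate 2. Neither passed the test, with log2 fold changes of 0.39 ± 0.41 SE and 0.18 ± 0.28 SE. The reads of Oas1a and of Oas3 are shared, with which genes the counts do not show. The sum of Oas1a, Oas1b, Oas1c and Oas1g was 26.42 CPM in WT and 22.22 and 26.7 CPM in DF508, so the sign for Oas1a turned to −0.16 when these 4 related genes were counted as 1 feature. Eif2ak2 and Adar had log2 fold changes of −0.40 and −0.44 and did not pass.

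**Figure D4:**
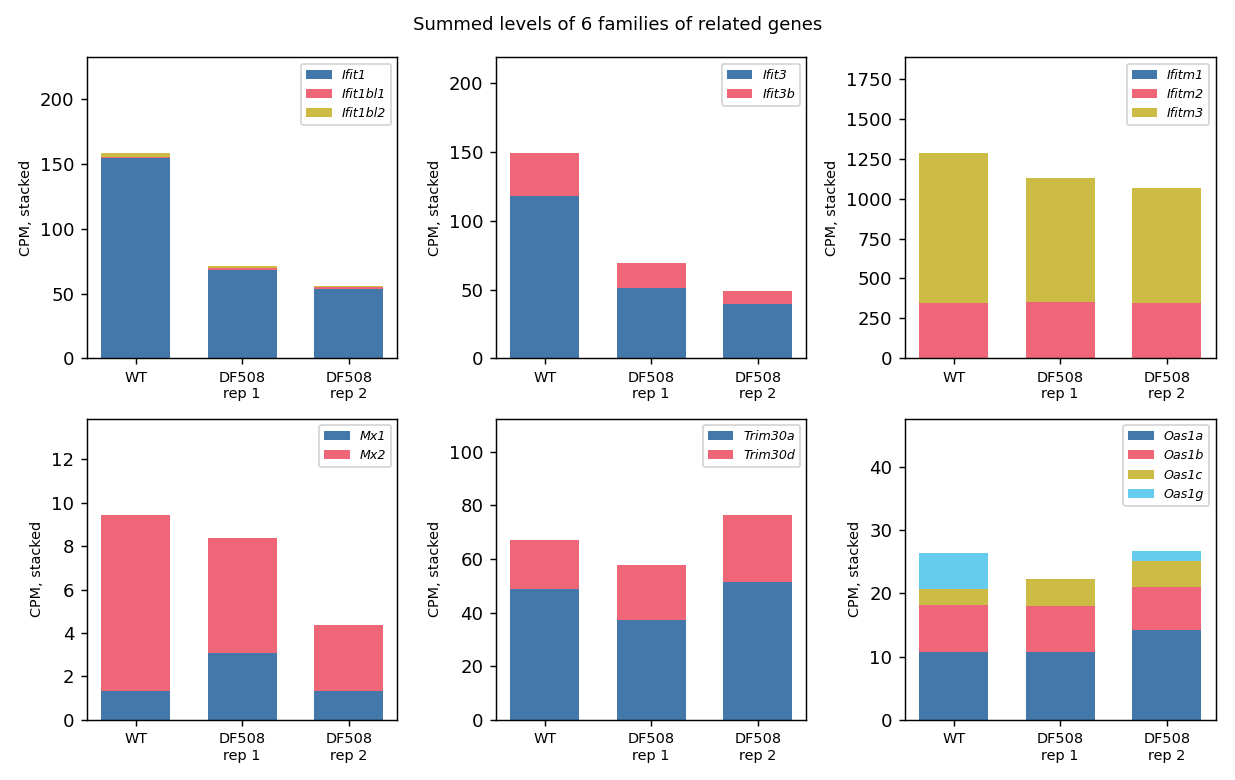
CPM per library of 6 families of related genes, each with a member that shares reads, as bars stacked by gene and starting at 0, for WT and the 2 DF508 libraries. The Ifit1 and Ifit3 families are below WT in both DF508 libraries, while the Oas1 and Trim30 families have 1 DF508 library below and 1 above WT.

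Membrane and replication-site factors act on virus entry, assembly and release. Of 8 genes 1 passed. Bst2 (gene ID 69550), which encodes tetherin, a protein that holds budding virions at the cell surface, was at 61.0 CPM in WT and at 34.1 and 31.4 CPM in DF508. The DF508 libraries lay close together and well below WT. Bst2 was 1.92-fold lower (log2 fold change −0.94 ± 0.14 SE, edgeR adjusted p = 0.0197).

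The products of the Ifitm genes stop fusion of virus with endosomal membranes. Ifitm3 and Ifitm2 had the highest FPKM of the 45 genes, while Ifitm1 was low. Ifitm3 stood at 1505 FPKM in WT and at 1258 and 1153 FPKM in DF508, a log2 fold change of −0.36 ± 0.10 SE that did not pass (edgeR adjusted p = 0.144). Ifitm2 was at 346 CPM in WT and at 349 and 345 CPM in DF508. These values differ by less than their counting error. Ifitm1 turned between the DF508 libraries, with 13.0 counts in WT, 8.17 in replicate 1 and 17.4 in replicate 2. The counts of the 3 Ifitm genes add up to whole numbers within 0.015, so no sharing with other genes was seen. Their sum was 1282 CPM in WT and 1131 and 1064 CPM in DF508.

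Mx1 and Mx2, dynamin-like GTPases, are annotated as transcribed pseudogenes in the C57BL/6J reference. Mx2 had 42.9 counts in WT and 27.9 and 16.0 in DF508, at least 1.5-fold lower in both, with a log2 fold change of −0.99 ± 0.44 SE and an edgeR adjusted p of 0.426. Mx1 had 7.13 counts in WT and 16.1 and 7 in DF508. The reads of the pair are divided between them, and their sum was 50 counts in WT and 44 and 23 in DF508. Rsad2, which encodes viperin, and its neighbour Cmpk2 had at most 21 counts in any library. For Rsad2 the pooled ratio to WT was 0.77, with an exact 95% interval from counting of 0.43 to 1.41.

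PARP9 and DTX3L form a complex that modifies histones, and PARP14 is an ADP-ribosyltransferase encoded beside them. All 3 were below WT in both DF508 libraries and 0 passed. Parp9 led by level at 13.5 FPKM in WT and 11.6 and 10.7 FPKM in DF508. The log2 fold changes were −0.32 in Parp9, −0.35 in Dtx3l and −0.22 in Parp14. Parp9 and Dtx3l overlap in the annotation, and no source used here says whether reads were counted by strand, so their reads may not be separable.

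The antibody receptor and ubiquitin ligase gene Trim21, the ligase gene Trim30a and the nuclear body gene Sp100 showed no direction that held in both DF508 libraries. In each of the 3 genes DF508 replicate 1 was below WT and replicate 2 above it. Trim30a led by level, with 12.9 FPKM in WT and 9.83 and 13.5 FPKM in DF508. It shares reads, and its counts become whole when summed with those of Trim30d, to 355 counts in WT and 302 and 401 in DF508.

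Of the 8 remaining genes, whose products have other or less settled roles, 3 passed and 7 were below WT in both DF508 libraries. Ifi44 (gene ID 99899) was at 105 CPM in WT and at 49.5 and 41.5 CPM in DF508. It was 2.39-fold lower (edgeR adjusted p = 0.00629) with both DF508 libraries at least 2-fold below WT, and it shares reads. Rtp4 (gene ID 67775), a chaperone of G protein-coupled receptors, was at 57.9 CPM in WT and at 28.2 and 21.9 CPM in DF508. Rtp4 was 2.38-fold lower (log2 fold change −1.25 ± 0.17 SE, edgeR adjusted p = 0.016). It overlaps Masp1 in the annotation.

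Lgals3bp (gene ID 19039), a secreted glycoprotein that binds galectins and matrix proteins, was the best expressed of this group at 531.5 FPKM in WT and 403.9 and 373.6 FPKM in DF508. With 6091, 4578 and 4240 counts it was the best measured of the 11 genes. Its fall was the smallest of the 11, 1.41-fold (log2 fold change −0.50 ± 0.09 SE, edgeR adjusted p = 0.043). Ifi35 had 111 counts in WT and 71 and 70 in DF508, at least 1.5-fold lower in both with nearly equal DF508 values, and did not pass (log2 fold change −0.68 ± 0.22 SE, edgeR adjusted p = 0.222). Xaf1, Ifi27 and Samd9l had log2 fold changes of −0.59, −0.39 and −0.37, and Ifi27l2a, with 36, 30 and 44 counts, lay on both sides of WT.

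Cxcl10, a chemokine that attracts T cells, was the sole chemokine of the set and one of the 3 genes above WT in both DF508 libraries. It had 12 counts in WT and 19 and 13 in DF508. Pooled over both DF508 libraries this was 1.35 times the WT level, with an exact 95% interval from counting of 0.675 to 2.87. The intervals cover counting error only.

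**Figure D5:**
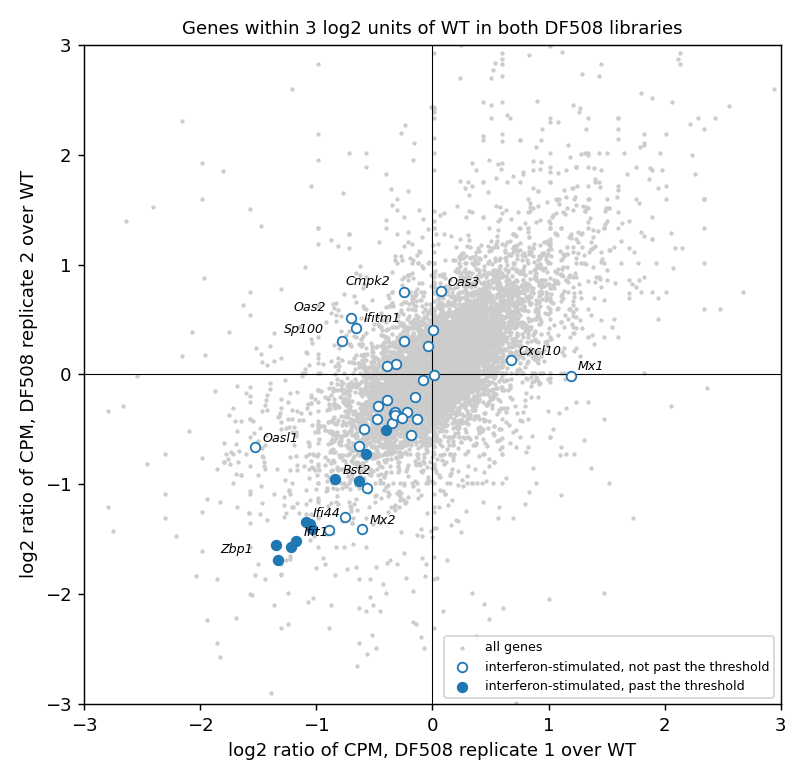
Log2 ratio of CPM to WT in DF508 replicate 1 (horizontal) against replicate 2 (vertical), with all genes in grey and the 45 interferon-stimulated genes as circles, filled where past the threshold. All 11 filled circles lie in the lower left, and 98 of 12874 genes beyond 3 log2 units on either axis are not drawn.

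The genes that carry the interferon signal to this set were read from the same fit. Of 49 listed genes for ligands, receptors, signalling and induction of interferon, 24 were tested, 1 was lower and 0 were higher. Among all genes tested, 0.900% were called lower and 0.489% higher. Of 21 interferon genes, Ifnz was the sole one with a count, at 0 in WT and 4.76 and 6.45 expected counts in DF508, shared with other genes. The other 20, Ifnb1 and the Ifna genes among them, were listed in none of the 3 libraries and were set to 0. Whether each was part of the annotation used for counting is not known. For a gene that was, 0 allows up to 3 counts, or 0.566 to 0.572 CPM.

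Of the 5 receptor genes tested, 4 were above WT in both DF508 libraries and 0 passed. Over all genes with at least 10 counts in a library, 43.2% were above WT in both. Ifnar2, the subunit that binds the interferons with the higher affinity, was at 50.5 FPKM in WT and 54.8 and 62.6 FPKM in DF508. Ifngr2, a subunit of the interferon gamma receptor, was at 42.0 FPKM in WT and 37.7 and 40.7 FPKM in DF508. Neither differed in the test, with log2 fold changes of 0.24 ± 0.13 SE and −0.15 ± 0.11 SE.

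Of the 7 signalling genes 1 passed. Socs3, an inhibitor of JAK kinases that cytokines of the interleukin-6 family induce, was at 142 CPM in WT and at 76.5 and 74.3 CPM in DF508. It was 1.94-fold lower (log2 fold change −0.96 ± 0.10 SE, edgeR adjusted p = 0.00813), and the DF508 libraries nearly coincided. Jak1, at 97.9 FPKM in WT and 98.1 and 99.3 FPKM in DF508, had a log2 fold change of −0.03 ± 0.09 SE.

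Socs1, the feedback inhibitor of interferon receptors, had 21 counts in WT and 29 and 20 in DF508. The 12 genes tested for induction of interferon had a median log2 fold change of 0.14 and 0 passed.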

How the data were processed

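Poly(A) RNA of 3 libraries, 1 WT and 2 DF508, was sequenced, per the labels. Bowtie, RSEM and the genome mm9 are named in the submitters' processing notes; their versions, the annotation release and strand use were not given in the sources used here. Per the file headers, the deposited tables hold for each gene an expected count, RSEM's estimate of its reads, not normalized, and an FPKM, scaled by the authors to gene length and library size. A gene not listed in a library was set to 0.

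The members and lists were chosen with earlier results of these data known. Symbols came from a RefSeq table of GRCm38.p6 by gene ID (16579 of 16621 found), which served for names and neighbours. Of the expected counts 79.4% to 79.8% were whole within 0.005, and a gene not whole in at least 1 library was taken to share reads. All expected counts were rounded and tested with edgeR's quasi-likelihood test (TMM, filterByExpr, genotype as the sole term, Benjamini-Hochberg over 12888 genes, threshold 0.05). The fit had 1 residual and 7.72 prior degrees of freedom, and an SE is the size of the log2 fold change over the square root of F. TMM lowered the log2 ratios to WT by 0.04 and 0.05 relative to library totals. A ratio's exact 95% interval is Clopper-Pearson on the split of counts; without molecular identifiers in the labels, these and the floor of 3 counts cover counting error only.

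Values per library are given for genes past the threshold, those 1.5-fold or more from WT in each DF508 library, over 1.25-fold up in one and down in the other, or best expressed in a role group; for pathway genes past the threshold; and for the best expressed ligand, receptors and signalling genes, except 1 that is not reported here. Stat2, Irf1, Herc6, Ifit2, Oas1a, Oas3, Mx1, Ifitm2, Rsad2, Ifi27l2a and Socs1 were added after their values were seen. The alternatives were DESeq2 size factors, library totals, no filter, a minimum mean of 50 counts, limma-voom, limma on log2 FPKM, the Wald test of DESeq2, glmTreat and the likelihood ratio test of edgeR, genes that share reads left out or summed, and each DF508 library left out; sums with named paralogs were added after the data were seen. The fit was also run on simulated counts in which all 3 libraries were given the same spread. That run cannot check whether the single WT library scatters like the DF508 pair. Versions were DESeq2 1.42.0, limma 3.58.1, edgeR 4.0.16 and R 4.3.3.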

Additional observations from a re-analysis of the deposited data

How the results depend on the processing

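The 11 genes past the threshold kept a negative sign under all 14 alternatives with a test (6 of the 11 where genes that share reads were left out), and without either DF508 library. Over the 45 genes and these alternatives, 499 values kept their sign and their side of the threshold, 68 no longer passed, 7 newly passed and 8 changed sign. All 68 fell on the 11 genes, while the 499 include genes that passed in no setting, so the 499 do not measure how stable the calls were. With library totals, without a filter on low counts and in all 3 limma fits on log2 FPKM, 0 of all genes rose or fell and 0 of the 45 passed. The median of the 45 was then −0.35 with library totals, −0.39 (−0.395) without a filter, −0.36 on log2(FPKM + 1), −0.37 on log2(FPKM + 0.1) and −0.32 on log2(FPKM + 1) without a filter. The adjusted p of the 11 genes was 0.409 to 0.449 with library totals, 0.662 without a filter and 0.493 to 0.513 on FPKM. DESeq2's Wald test called 23 genes higher and 42 lower, 4 of them among the 45. The likelihood ratio test called 182 higher and 221 lower, and glmTreat 21 higher and 37 lower, with 7 of the 45. Without genes that share reads, 19 were higher and 52 lower, with 5 of 24 genes of the set and a median of −0.43. A mean of at least 50 counts gave a median of −0.46 over 34 genes and ended the call on Lgals3bp (adjusted p = 0.053). Summing partners gave a median of −0.41. Limma-voom added calls on Dhx58, Stat2 and Isg15. The cause of these differences was not tested.

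Without 1 DF508 library at a time, which leaves no test, the median was −0.44 to −0.44 (−0.441 to −0.439). On counts scaled to the library total, the median log2 ratio of the 45 genes to WT was −0.40 in either DF508 library. Over all genes with 10 counts it was 0.04 in replicate 1 and 0.05 in replicate 2. Sign changes were all in genes that did not pass: Oas2 0.032 and Ifitm2 0.0045 with library totals, Ifitm2 0.00497 on log2(FPKM + 1) with and without a filter and 0.00498 on log2(FPKM + 0.1), Ifi27l2a −0.0157 in limma-voom, Mx1 −0.61 summed with Mx2, and Oas1a −0.16 summed with its paralogs. No paired analysis was possible because WT has 1 library, without a replicate number. Depth limits genes such as Cmpk2, which had 6, 5 and 10 counts.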

Other observations

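Another list of 59 interferon-inducible genes, none of them among the 45, was read from the same fit. Of these 48 were tested, 0 passed the threshold, 34 had a negative and 14 a positive fold change, and the median log2 fold change was −0.23, against 0.01 over all genes tested. With Oas1g left out for its 0 counts in replicate 1, 25 were below WT in both DF508 libraries and 10 above in both. The shares over all genes were 29.8% and 43.2%. The lowest fold change was that of Oas1g, which shares reads and had 29.9 counts in WT and 0 and 7.85 in DF508. Ifit3b, the near copy of Ifit3, was at 31.1 CPM in WT and 18.6 and 9.10 CPM in DF508, and the ATPase gene Tor3a was at 85.1 CPM in WT and 58.0 and 60.4 CPM in DF508 (edgeR adjusted p = 0.0512). Slfn8, a gene of the Schlafen family that shares reads, was at 29.2 CPM in WT and 15.6 and 17.0 CPM in DF508. Among the 10 genes above WT in both DF508 libraries were the chemokine gene Ccl5, with 31 counts in WT and 46 and 88 in DF508, the cytidine deaminase gene Apobec3, with 86, 119 and 174 counts, the OAS family gene Oas1c, with 14, 22 and 22 counts, and Samhd1, which encodes a dNTP hydrolase, with 78.5 CPM in WT and 94.0 and 115.7 CPM in DF508. Ccl5, Apobec3 and Samhd1 were highest in DF508 replicate 2, the library with the highest sum of myeloid markers (802.4 CPM), while Oas1c was level between the DF508 libraries, and the part of those cells in their values was not tested. The genes named from this list were chosen after their values were seen.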
